A study of Homo sapiens with 18 samples.

Results

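The SOX genes encode transcription factors that share a DNA-binding domain, the HMG box, first found in SRY. The box sits in the minor groove of DNA at sites built on ACAAAG or ACAATG and bends the helix. Family groups are set by similarity of the box and act in different tissues. SOX2 belongs to group B and keeps stem cells undifferentiated, SOX4, SOX11 and SOX12 belong to group C and act in progenitor cells, SOX5, SOX6 and SOX13 belong to group D and lack a transactivation domain, and SOX8 and SOX9 belong to group E. SOX9 drives Sertoli cell differentiation in the gonad and, with SOX5 and SOX6, cartilage formation, and it is also used by epithelial progenitor cells.

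Chromatin accessibility near 9 of these genes (SOX2, SOX4, SOX5, SOX6, SOX8, SOX9, SOX11, SOX12 and SOX13) was examined by ATAC-seq, in which the transposase Tn5 inserts sequencing adapters into open DNA. The members were all windows of the deposited table that overlapped the annotated GRCh37 (hg19) span of a gene or the 50 kb on either side of it. A window was 1001 bp long and started 900 bp after the one before it. This gave 131 of 89428 windows. A window was called a promoter window of its gene when it reached into the stretch from 1000 bp before to 100 bp after the start of a protein-coding transcript, and 19 windows were of this kind. The promoter of another protein-coding gene lay in 12 windows, named neighbour promoters. The other 100 windows were called distal, including those inside the gene body. SOX2 had 10 windows, SOX4 9, SOX5 18, SOX6 19, SOX8 6, SOX9 18, SOX11 8, SOX12 25 and SOX13 18, and no window belonged to more than 1 gene. SOX6 had no promoter window of its own in the table. Each window is named below by how far its centre lies from the canonical transcript start.

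The 6 lines were established human ovarian cancer lines with 3 libraries each. A2780, labelled endometrial/ovarian in origin, was compared with CP70, its platinum-resistant derivative selected in culture. PEA1 and PEA2 were grown from ascites of a single patient before platinum treatment and after relapse, and PEO1 and PEO4 came from a single patient with high-grade serous ovarian cancer before and after clinical resistance, so that CP70, PEA2 and PEO4 were the lines labelled platinum resistant. All were cultured in the same medium without a drug arm. Each line is a single established culture, and nothing in the labels says that the 3 libraries came from separate cultures, so p-values measure only the spread between these libraries, which may be technical.

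Library totals, recovered from the value of 1 read, ranged from 8963079 reads in PEO1 to 60435027 in A2780. The mean share of reads that fell in the 89428 windows was 39.9% for PEO1 and 34.4% for PEO4, 18.9% for PEA2, 15.3% for PEA1, 13.1% for CP70 and 9.26% for A2780. Values are FPKM (reads of a window divided by its length and by the library total), so a library with less background reads higher in every open window, and each level below carries this difference between lines. Levels were therefore also described after dividing each library by its median over all windows, named median centring. Replicate libraries differed by more than sampling noise, with a chi-square per window from 1.07 to 2.10. At the start windows of 5 epithelial markers (EPCAM, CDH1, KRT8, KRT18 and KRT19), the summed level was 43.1 FPKM in PEO4 and 32.6 in PEO1, whereas PEA2 had 9.09, PEA1 7.97, CP70 7.06 and A2780 3.99. Of 5 Mullerian and serous markers 4 had such a window (PAX8, WT1, MECOM and EMX2), with a sum from 3.67 FPKM in A2780 to 32.9 in PEO1. No start window of 3 endothelial markers was in the table, and of 4 leukocyte markers only that of CD68 was, at up to 2.77 FPKM. The part of such differences between lines in the SOX levels was not tested.

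SOX9 was open at its start window in both lines of the PEO patient, and less so there in the other 4 lines. Its start window (SOX9 -0.4 kb, chr17:70116300-70117300, over the upstream flank and the 5′ untranslated exon of SOX9 and an exon of the antisense transcript SOX9-AS1) held 17.8, 16.1 and 16.7 FPKM in PEO1 and 19.5, 21.4 and 17.1 in PEO4. PEA1 held 6.44, 5.70 and 4.65 FPKM and PEA2 held 3.19, 3.12 and 2.97. A2780 held 0.61, 0.789 and 0.86 FPKM and CP70 held 1.44, 1.56 and 1.26. The libraries of both PEO lines overlapped each other and stood above those of the other 4 lines, none of which overlapped with another. The line means were 0.753 ± 0.128 FPKM (SD, n = 3) in A2780, 1.42 ± 0.151 in CP70, 3.09 ± 0.11 in PEA2, 5.60 ± 0.899 in PEA1, 16.9 ± 0.845 in PEO1 and 19.3 ± 2.17 in PEO4. With 0.1 FPKM added to each mean, the highest was 22.8 times the lowest, and 7.53 times after median centring, where CP70 and PEA2 overlapped and PEO1 lay below PEO4. Over the 3 promoter windows of SOX9 the centred means were 4.73 in PEA1, 4.71 in PEO1 and 7.40 in PEO4. PEA1 and PEO1 overlapped there. As deposited, a PEO line was highest at 86.6% of all promoter windows.

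**Figure D1:**
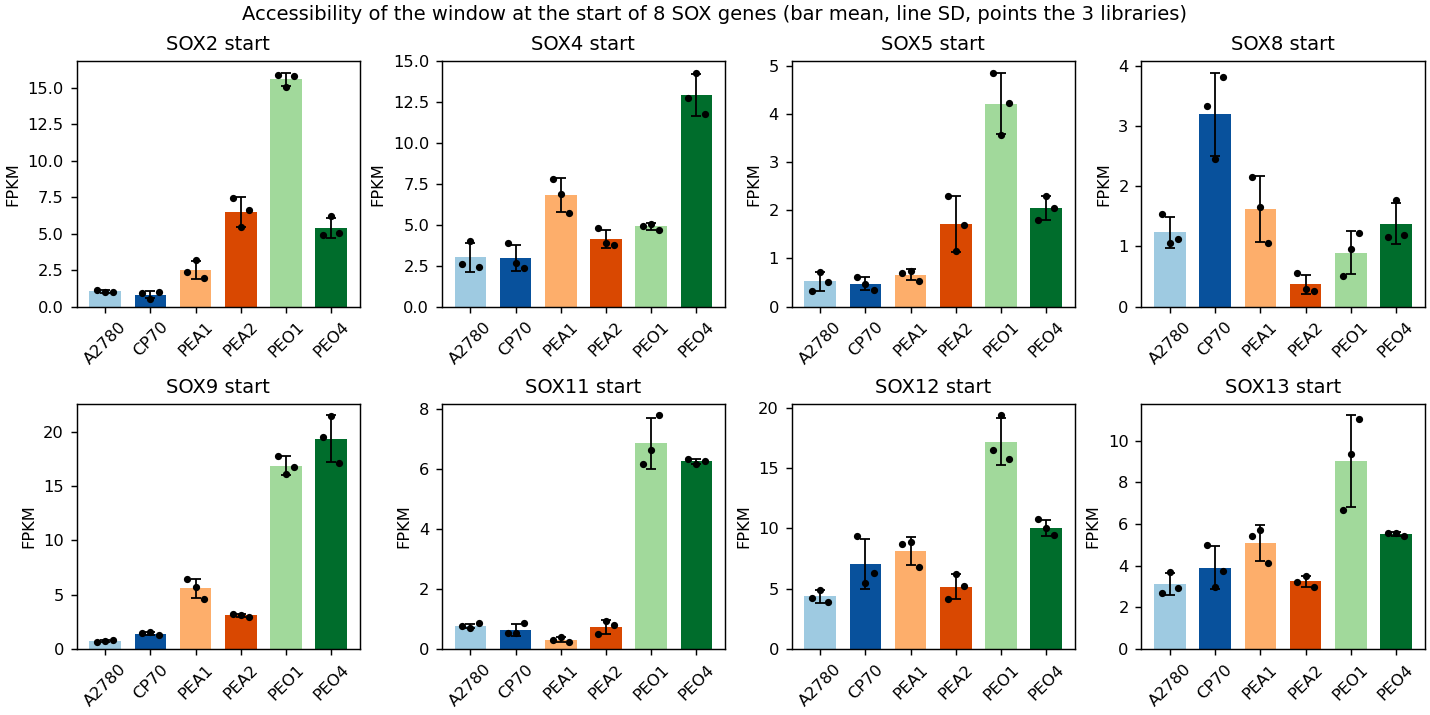
Accessibility in FPKM (y axis) of the window at the start of 8 SOX genes in the 6 lines (x axis), with bars for the mean, error bars for the SD and points for the 3 libraries. SOX2, SOX5, SOX12 and SOX13 were highest in PEO1, SOX4 in PEO4, SOX9 and SOX11 in both PEO lines, and SOX8 in CP70 with a mean of 3.20 FPKM.

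Windows were compared within each pair by limma with a mean-variance trend on log2(FPKM + 0.1), over the windows with a mean above 1 FPKM in the 6 libraries of the pair. A window under 1 FPKM in 1 line of a pair could reach this mean only through the other line. Its p-value is then no independent support for a difference. Benjamini-Hochberg adjusted p-values were taken over all windows tested. A window was called when the resistant line differed from the sensitive line by more than 2 on the log2 scale with an adjusted p below 0.001, and passed a wider rule with a difference above 1 and an adjusted p below 0.05. At the SOX9 start window the log2 fold change was 0.84 (SE 0.28, adjusted p = 0.011) in CP70 against A2780, -0.82 (SE 0.23, adjusted p = 0.00066) in PEA2 against PEA1 and 0.19 (SE 0.10, adjusted p = 0.10) in PEO4 against PEO1. None passed the wider rule. The next window, SOX9 +0.5 kb, passed it in the PEA pair, where it was lower in PEA2 by a log2 fold change of -1.33 (adjusted p = 2.5e-08), from 4.81 ± 0.965 FPKM in PEA1 to 1.91 ± 0.73 in PEA2. In the 5 Mb around SOX9 the median window changed by -0.55 in the PEA pair, and with that median removed the change at the start window was -0.28 and that at SOX9 +0.5 kb was -0.78, which ends its call.

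The most open distal window of SOX9 stood out in the PEO lines. SOX9 -16.6 kb (chr17:70100100-70101100, in introns of SOX9-AS1 and of ENSG00000288605, both non-coding) had the highest mean of the distal windows over all 18 libraries. It held 7.69, 7.68 and 9.47 FPKM in PEO1 and 9.01, 9.26 and 8.82 in PEO4, whereas the other 4 lines had means from 0.223 FPKM in PEA2 to 0.441 in PEA1 that overlapped each other. PEO4 and PEO1 did not pass a test of their difference there (log2 fold change 0.13, SE 0.12, adjusted p = 0.36). Of the 15 distal windows of SOX9, 10 had a mean under 1 FPKM in every line other than PEO1 and PEO4. The share of all distal windows with this trait was not taken, so the count has no background. A PEO line had the highest mean at 68.7% of all distal windows. In the table's selection, every window exceeds 2 FPKM in at least 2 libraries, so a window listed here was open in at least part of the lines. The distal mean was 2.70 ± 0.246 FPKM in PEO1 and 3.16 ± 0.0488 in PEO4, against 0.802 in PEA1, 0.787 in PEA2, 0.478 in CP70 and 0.469 in A2780. The highest of these means was 6.74 times the lowest, where the mean of the 3 promoter windows gave 15.7 times, so the distal windows as a set differed less between lines than the promoter. At SOX9 +30.2 kb PEA2 (1.87 FPKM) exceeded PEO4 (1.20 FPKM).

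A pair of touching windows downstream of SOX9 was open in PEO4 alone. SOX9 +38.3 kb (chr17:70155000-70156000, intronic to SOX9-AS1 and ENSG00000288605) held 5.17, 6.14 and 5.48 FPKM in PEO4, which were 89, 128 and 110 reads, and 0.202, 0.524 and 0.446 FPKM in PEO1, which were 2, 6 and 4 reads. The other 4 lines lay between 0.152 and 0.623 FPKM in every library and overlapped PEO1. PEO4 exceeded PEO1 by 3.60 on the log2 scale (SE 0.26, adjusted p = 1.9e-14), by 3.93 after median centring and by 2.73 with the median of its 5 Mb removed. The neighbour SOX9 +37.4 kb held 2.15, 2.06 and 1.74 FPKM in PEO4 and 0.101, 0.174 and 0.446 in PEO1, a log2 fold change of 2.74 (SE 0.39, adjusted p = 1.5e-07). These were the only member windows called higher in a resistant line of the PEO pair, 2 of 121 tested, where 2.72% of all 77654 tested windows were called higher. Both windows reached the mean needed for a test in this pair only. They did so through PEO4 alone, as every PEO1 library lay under 1 FPKM, so their p-values are no independent support.

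The central 300 bases of the PEO4-only and PEO-only windows are shown, since the SOX9 results turn on these windows. They were read from GRCh37 on the plus strand at chr17:70155351-70155650 and chr17:70100451-70100750. Capitals would mark ACAAAG or ACAATG on either strand, and these stretches hold neither.
SOX9 +38.3 kb: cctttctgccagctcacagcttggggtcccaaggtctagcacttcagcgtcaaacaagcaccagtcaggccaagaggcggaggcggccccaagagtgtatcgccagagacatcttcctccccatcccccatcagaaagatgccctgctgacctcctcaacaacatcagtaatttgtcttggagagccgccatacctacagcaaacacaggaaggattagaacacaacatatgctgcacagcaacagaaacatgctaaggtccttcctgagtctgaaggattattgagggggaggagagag
SOX9 -16.6 kb: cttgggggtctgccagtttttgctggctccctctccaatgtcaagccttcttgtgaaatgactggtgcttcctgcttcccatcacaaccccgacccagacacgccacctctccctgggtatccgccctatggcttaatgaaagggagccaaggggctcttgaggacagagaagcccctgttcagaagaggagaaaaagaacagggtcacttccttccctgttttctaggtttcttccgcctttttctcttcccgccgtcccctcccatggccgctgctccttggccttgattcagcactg

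Other SOX9 windows moved in both directions. In the PEO pair, SOX9 -23.8 kb was lower in PEO4 (1.57 ± 0.253 FPKM) than in PEO1 (4.63 ± 0.713), with a log2 fold change of -1.50 (adjusted p = 1.8e-08), and SOX9 +14.0 kb was lower by a log2 fold change of -1.10 (adjusted p = 0.00036), both passing the wider rule. Of 17 SOX9 windows tested in this pair, 2 were higher and 2 lower by the wider rule. Of all windows 9.63% were higher and 23.6% lower. The 5 Mb median around SOX9 was 0.87 in the PEO pair, and with it removed 2 were higher and 4 lower. The log2 fold change of the SOX9 distal mean then went from 0.21 to -0.62. The median over the SOX9 promoter windows went from 0.19 to -0.68. SOX9 -43.6 kb, described after its values were seen, was open in PEA2 alone, at 2.03, 1.97 and 2.26 FPKM against 0.513, 0.53 and 0.575 in PEA1. Its log2 fold change in the PEA pair was 1.77 (SE 0.27, adjusted p = 5.0e-10), and all other lines had means from 0.427 to 0.545 FPKM. It reached the mean needed for a test through PEA2 alone. Among the 8 SOX9 windows tested in the PEA pair, this window was the only one higher by the wider rule and 2 were lower, where 29.7% of all windows were higher and 9.27% lower. With the 5 Mb median removed 3 were higher and 0 lower. Shares of all windows were not taken with the 5 Mb median removed, so these SOX9 counts have no background in either pair.

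**Figure D2:**
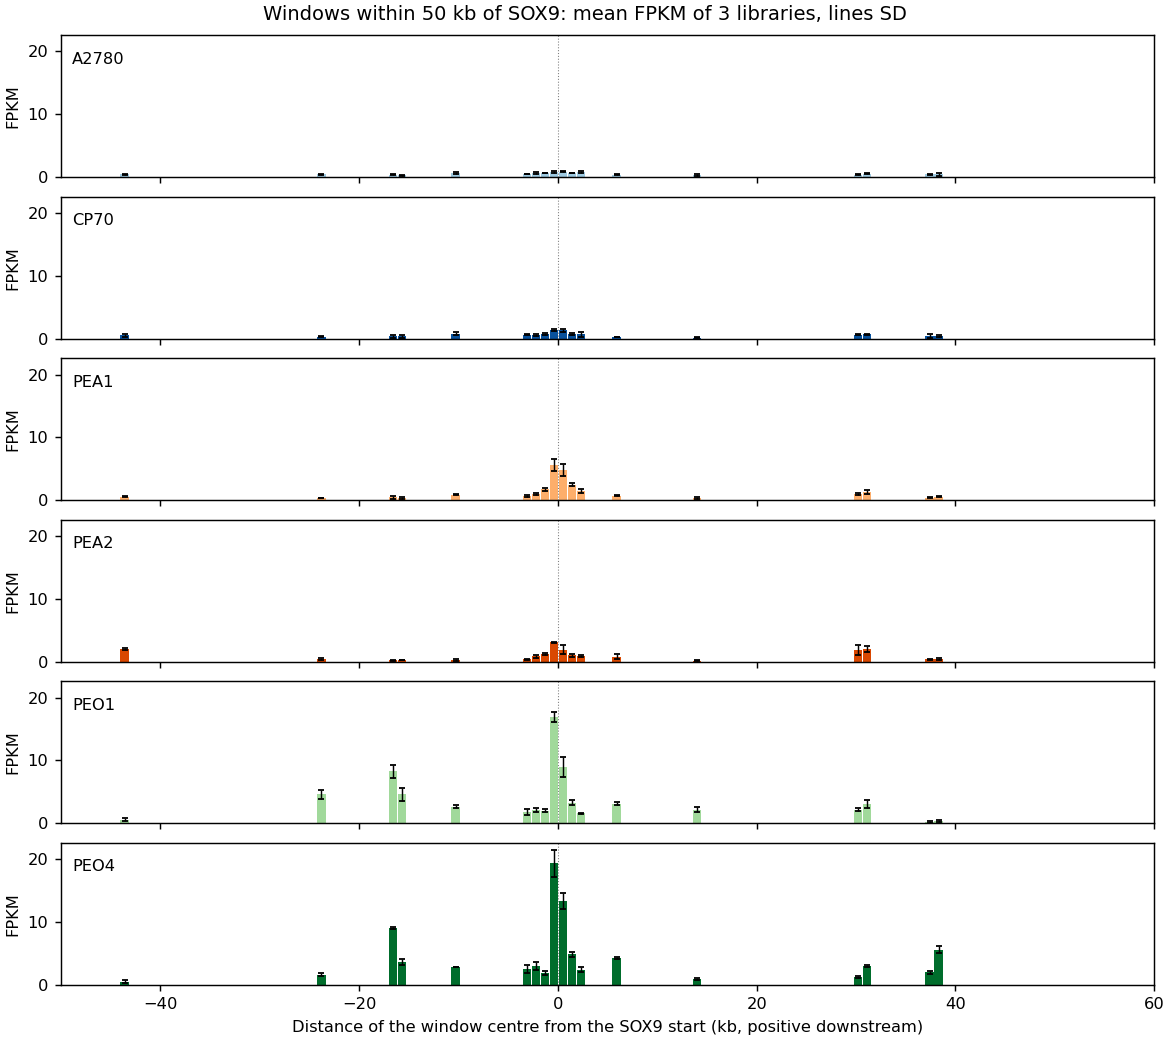
Mean FPKM of 3 libraries with the SD (y axis) for each window of the table within 50 kb of SOX9, by the distance of its centre from the start in kb (x axis), in 1 panel per line. PEO1 and PEO4 share the start window and the window at 16.6 kb upstream, and the windows at 37.4 and 38.3 kb downstream stand in PEO4 only.

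SOX8, the close relative of SOX9 that can take over part of its role in the testis, was the only member to pass the wider rule in the A2780 pair. SOX8 +0.1 kb (chr16:1031400-1032400, over the first exon of SOX8) held 1.53, 1.06 and 1.12 FPKM in A2780 and 3.33, 2.45 and 3.81 in CP70, so the lines did not overlap. The log2 fold change was 1.30 (SE 0.26, adjusted p = 1.2e-05), and the neighbour SOX8 -0.8 kb gave 1.37 (SE 0.25, adjusted p = 2.8e-06). In PEA1 the same window held 2.15, 1.65 and 1.05 FPKM and in PEA2 0.55, 0.289 and 0.266, which was below the mean needed for a test in that pair alone. In the fit over the libraries of both pairs, the change in the PEA pair was lower than that in the A2780 pair by a log2 difference of -3.17 (SE 0.37, adjusted p = 1.1e-12). In the 5 Mb around SOX8 the median window of the PEA pair changed by -1.81. CP70 had the highest level at this window of the 6 lines, 3.20 ± 0.688 FPKM, also after median centring. SOX8 -11.6 kb (chr16:1019700-1020700, in an intron of LMF1), the most open distal window, held 3.76 ± 0.776 FPKM in PEO1 and 4.04 ± 1.00 in PEO4 and passed the wider rule in no pair.

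No member window was called in the A2780 pair, where 53 of 131 were tested, and the count was also 0 with edgeR and with DESeq2 on the recovered reads. Of all 37128 windows tested, 0.428% were called higher in CP70 and 0.369% lower. By the wider rule the SOX8 windows made 2 of 53 higher (3.77%) and 0 lower, where 11.4% of all windows were higher and 1.1% lower. With the 5 Mb median removed the SOX8 changes were 0.65 and 0.72, and their calls were lost, as they were with edgeR, with DESeq2, with a pseudocount of 1 and after quantile normalization. The median log2 fold change was 0.31 over the member windows and 0.59 over all windows tested, so CP70 read higher at the typical window.

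SOX2 passed the wider rule at every window tested in the PEA and PEO pairs, in opposite directions. Its windows were centred from 17.1 kb upstream to 0.9 kb downstream of the start, so the end of the gene had none. Its start window (SOX2 +0.0 kb, chr3:181429200-181430200, over the start and the coding sequence of SOX2, inside the non-coding SOX2-OT) held 15.9, 15.1 and 15.8 FPKM in PEO1 and 4.94, 6.19 and 5.08 in PEO4. PEA1 held 2.40, 3.18 and 1.97 FPKM and PEA2 held 7.47, 5.43 and 6.61. A2780 and CP70 had means of 1.04 ± 0.0726 and 0.818 ± 0.246 FPKM and overlapped each other. The log2 fold change was -1.52 (SE 0.12, adjusted p = 2.2e-13) in the PEO pair and 1.35 (SE 0.23, adjusted p = 1.2e-08) in the PEA pair, and the difference between these changes was -2.87 (SE 0.25, adjusted p = 1.7e-13). With the median of the surrounding 5 Mb removed, the change in the PEA pair became -0.07, since that median was 1.42, and that in the PEO pair became -0.56.

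The distal windows of SOX2 lay in a cluster between 9.9 and 17.1 kb upstream of the start and next to the gene. SOX2 -16.2 kb (chr3:181413000-181414000, in introns of SOX2-OT and ENSG00000239381) was the most open. It held 13.2, 14.7 and 13.8 FPKM in PEO1, 2.21, 2.26 and 2.24 in PEO4, 1.22, 0.997 and 0.527 in PEA1 and 5.33, 3.24 and 5.15 in PEA2. PEO1 stood above PEA2, which stood above PEO4, and PEA1, CP70 and A2780 overlapped below them. The log2 fold change was -2.58 (SE 0.14, adjusted p = 4.2e-18) in the PEO pair and 2.24 (SE 0.24, adjusted p = 4.8e-20) in the PEA pair, and with the 5 Mb median removed these were -1.63 and 0.82. SOX2 -17.1 kb fell short of the mean needed in the PEA pair and was called lower in PEO4 (log2 fold change -2.96, SE 0.29, adjusted p = 4.2e-11), from 3.26 ± 0.544 FPKM in PEO1 to 0.328 ± 0.0259 in PEO4. SOX2 -11.7 kb (chr3:181417500-181418500, over exons of SOX2-OT and ENSG00000239381) was called higher in PEA2, with a log2 fold change of 2.36 (SE 0.27, adjusted p = 9.5e-17), from 0.434 ± 0.145 to 2.61 ± 0.578 FPKM. In the PEO pair its log2 fold change was -1.29 (adjusted p = 1.2e-08).

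The central 300 bases of the SOX2 window at 16.2 kb upstream (chr3:181413351-181413650) and the 250 bases before the start (chr3:181429463-181429712) are shown for these calls, from the plus strand of GRCh37, with each ACAAAG in capitals. ACAAAG occurs before the start and not in the centre of the window at 16.2 kb. Over all windows, 28.1% of the central 300 bases held ACAAAG or ACAATG on either strand, and of the 250 bases before 20136 protein-coding starts 15.7% did.
SOX2 -16.2 kb: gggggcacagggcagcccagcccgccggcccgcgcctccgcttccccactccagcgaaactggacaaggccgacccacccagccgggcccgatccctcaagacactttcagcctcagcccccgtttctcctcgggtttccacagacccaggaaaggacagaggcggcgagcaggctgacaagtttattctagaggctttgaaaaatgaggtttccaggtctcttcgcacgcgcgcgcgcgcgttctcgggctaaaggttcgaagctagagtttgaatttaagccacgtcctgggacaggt
SOX2 upstream region: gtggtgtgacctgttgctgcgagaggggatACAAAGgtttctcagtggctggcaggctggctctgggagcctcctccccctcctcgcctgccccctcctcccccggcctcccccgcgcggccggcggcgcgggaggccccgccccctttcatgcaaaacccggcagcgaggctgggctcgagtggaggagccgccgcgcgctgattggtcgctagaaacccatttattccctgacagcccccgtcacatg

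By the wider rule all 10 SOX2 windows were lower in PEO4, where 23.6% of all windows were, and all 8 that could be tested in the PEA pair were higher in PEA2, where 29.7% of all windows were. After median centring 7 of 10 and 5 of 8 passed, and with the 5 Mb median removed 3 of 10 and 0 of 8. Shares of all windows were not taken for these settings, so these counts have no background. The mean over the 8 distal windows was 0.636 ± 0.0784 FPKM in PEA1 and 2.56 ± 0.441 in PEA2, and 5.72 ± 0.122 in PEO1 and 1.55 ± 0.0412 in PEO4. Distal means were tested over 18675 protein-coding genes by the wider rule. The SOX2 distal mean was higher in PEA2 by 2.03 (SE 0.17, adjusted p = 1.5e-08), where 22.1% of genes were higher and 5.19% lower. It was lower in PEO4 by a log2 fold change of -1.76 (SE 0.07, adjusted p = 6.7e-07), where 14.1% were lower and 3.92% higher. In the A2780 pair 3.08% of genes were higher and 0.594% lower, and no SOX gene passed. In both patient-derived pairs the SOX2 call on the distal mean was lost with the 5 Mb median removed, at 0.70 and -0.85.

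**Figure D3:**
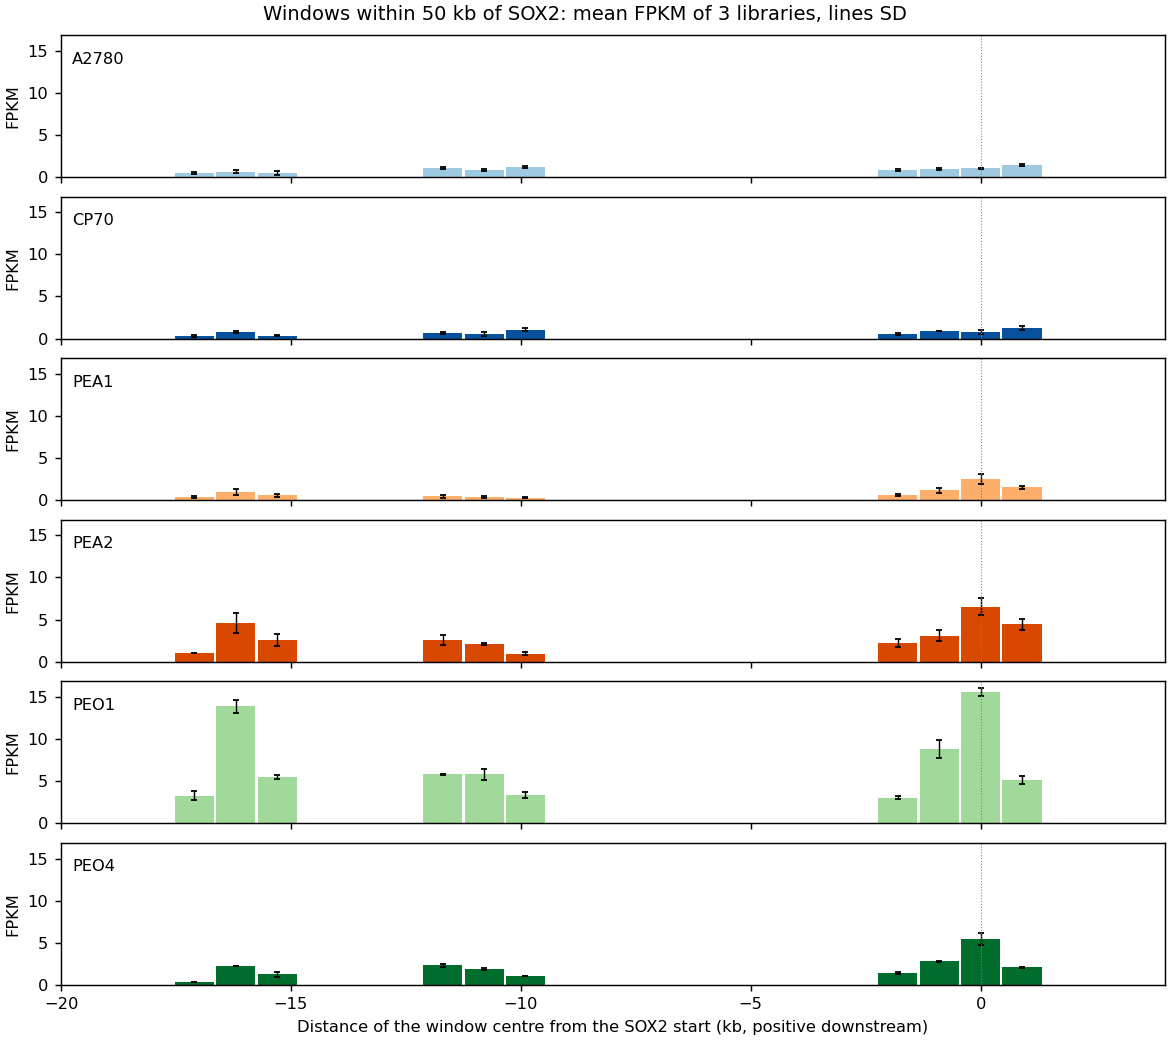
Mean FPKM of 3 libraries with the SD (y axis) for the windows within 50 kb of SOX2, by distance from its start in kb (x axis), in 1 panel per line. The upstream cluster and the start are highest in PEO1, with 13.9 FPKM at 16.2 kb upstream, and PEA2 stands above PEA1.

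SOX4, which acts in progenitor cells and in epithelial to mesenchymal change, went the other way in the PEO pair. Its start window (SOX4 +0.2 kb, chr6:21593700-21594700, over the promoter and the 5′ untranslated part of its exon) held 4.96, 5.06 and 4.68 FPKM in PEO1 and 12.7, 14.3 and 11.8 in PEO4. PEA1 held 7.79, 6.92 and 5.71 FPKM and PEA2 held 4.78, 3.87 and 3.77, while A2780 and CP70 overlapped at means of 3.01 and 2.97. PEO4 exceeded PEO1 by 1.38 (SE 0.13, adjusted p = 5.7e-12), by 1.71 after median centring and by 0.71 with the 5 Mb median of 0.67 removed, which ends the call. The PEA pair gave -0.70 (SE 0.23, adjusted p = 0.0044), and the changes of these pairs differed by 2.08 (SE 0.24, adjusted p = 3.4e-10). The window SOX4 +1.1 kb, in the exon, was higher in PEO4 by 1.23 (SE 0.17, adjusted p = 6.9e-08), and this fell to 0.99 without PEO1 replicate 1. Of 8 SOX4 windows tested in the PEO pair 5 were higher and none lower by the wider rule, against 9.63% and 23.6% of all windows. With the 5 Mb median removed none of the 5 passed, and after median centring 6 SOX4 windows were higher. No shares of all windows were taken for these settings.

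SOX11, a group C gene of neural progenitors, was open in the PEO lines and had means under 1 FPKM at its start in the other lines. Its start window (SOX11 +0.0 kb, chr2:5832000-5833000) held 6.17, 6.63 and 7.80 FPKM in PEO1 and 6.34, 6.19 and 6.28 in PEO4, and the means of the other lines were 0.311 FPKM in PEA1, 0.650 in CP70, 0.739 in PEA2 and 0.783 in A2780. PEO4 and PEO1 overlapped (log2 fold change -0.12, SE 0.13, adjusted p = 0.43). The window SOX11 +4.5 kb (chr2:5836500-5837500), in the 3′ untranslated part of the exon, reached 20.5 ± 0.744 FPKM in PEO1 and 9.00 ± 0.79 in PEO4, the latter lower by a log2 fold change of -1.18 (SE 0.11, adjusted p = 6.2e-12), which becomes -0.85 after median centring. SOX11 +56.7 kb (chr2:5888700-5889700), described after its values were seen, was higher in PEO4, at 1.86, 2.83 and 2.84 FPKM against 0.506, 0.698 and 0.557 in PEO1, with a log2 fold change of 1.91 (SE 0.28, adjusted p = 2.4e-07). The means of the other lines lay between 0.322 and 0.483 FPKM there, and the window reached the mean needed for a test through PEO4 alone. No SOX11 window reached the mean needed for a test in the A2780 or the PEA pair.

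SOX12, the third gene of group C, had an open start in every line. Its start window (SOX12 +0.3 kb, chr20:306000-307000) held 4.27, 4.93 and 3.92 FPKM in A2780, 9.39, 5.45 and 6.32 in CP70, 8.71, 8.85 and 6.81 in PEA1, and 4.12, 6.24 and 5.19 in PEA2. PEO1 held 16.5, 19.4 and 15.7 FPKM and PEO4 held 10.8, 10.0 and 9.41. PEO1 was the highest and PEO4 next. Below them CP70 overlapped PEA1 and PEA2, and PEA2 overlapped A2780, while A2780 lay wholly below CP70 and PEA1. This order changed after median centring. PEA2 was then the lowest and PEO4 next, and PEO1 overlapped A2780 and PEA1. The window passed the wider rule in no pair (log2 fold changes 0.65, -0.65 and -0.76). A distal stretch, SOX12 -15.9 kb (chr20:289800-290800, intergenic), held 3.24, 3.58 and 2.56 FPKM in PEO1 and 0.174, 0.336 and 0.0996 in PEO4, which were 3, 7 and 2 reads. It was called lower in PEO4 with a log2 fold change of -3.47 (SE 0.35, adjusted p = 6.0e-11), the most negative of the member windows, and of -2.31 with the 5 Mb median of -1.17 removed. PEA1 and PEA2 did not pass a test there (log2 fold change -0.03, SE 0.26, adjusted p = 0.93), at 1.26 ± 0.0169 and 1.23 ± 0.09 FPKM. The touching window SOX12 -15.0 kb fell from 10.5 ± 2.8 FPKM in PEO1 to 1.86 ± 0.295 in PEO4 (log2 fold change -2.42, adjusted p = 6.4e-15). The SOX12 distal mean was lower in PEO4 by a log2 fold change of -1.08 (SE 0.09, adjusted p = 1.5e-05), and 0.03 with the 5 Mb median removed.

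The centre of the SOX12 window, the most negative call, is shown from the plus strand of GRCh37 (chr20:290151-290450) with its CATTGT, the reverse complement of ACAATG, in capitals.
SOX12 -15.9 kb: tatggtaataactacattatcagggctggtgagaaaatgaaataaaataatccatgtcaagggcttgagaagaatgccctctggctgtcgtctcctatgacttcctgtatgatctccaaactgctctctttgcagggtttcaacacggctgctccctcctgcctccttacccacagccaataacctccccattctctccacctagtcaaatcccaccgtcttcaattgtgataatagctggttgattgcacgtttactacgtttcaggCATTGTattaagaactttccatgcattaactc

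In the PEA pair, by the wider rule, 6 of 25 SOX12 windows were higher in PEA2 and 4 lower, against 29.7% and 9.27% of all windows. The higher windows lay 34.5 to 48.0 kb downstream of the start, led by SOX12 +48.0 kb with 0.768 ± 0.251 FPKM in PEA1 and 2.77 ± 0.464 in PEA2 (log2 fold change 1.75, adjusted p = 1.6e-11). SOX12 +1.2 kb, inside the gene, was lower in PEA2 by a log2 fold change of -1.14 (SE 0.23, adjusted p = 1.9e-06).

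SOX5, the partner of SOX9 and SOX6 in cartilage, was most open in PEO1. Its start window (SOX5 +0.1 kb, chr12:24102000-24103000) held 4.86, 3.58 and 4.24 FPKM in PEO1, 1.80, 2.30 and 2.04 in PEO4, 0.705, 0.748 and 0.527 in PEA1 and 2.31, 1.16 and 1.69 in PEA2. PEA2 and PEO4 overlapped, and the means of A2780 and CP70 were 0.522 and 0.473. It was higher in PEA2 by 1.22 (SE 0.28, adjusted p = 3.0e-05) and lower in PEO4 by a log2 fold change of -1.0 (SE 0.19, adjusted p = 1.1e-05), and the changes differed by -2.22 (SE 0.34, adjusted p = 1.5e-07). The 5 Mb medians were 1.42 and -1.0, and with them removed the changes were -0.21 and -0.01. The PEO call also ended without PEO1 replicate 1 (-0.90), PEO1 replicate 3 (-1.0, just short of the threshold) or PEO4 replicate 1 (-0.92). The 14 distal windows averaged 3.56 ± 0.579 FPKM in PEO1, 1.95 ± 0.235 in PEO4, 0.689 in PEA2 and 0.240 to 0.296 in the other lines. Of these windows 12 had means under 1 FPKM in all lines but PEO1 and PEO4, a count with no share of all distal windows beside it. The lowest log2 fold change in PEO4 was -1.92 (adjusted p = 3.0e-08) at SOX5 -277.1 kb, within the gene.

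SOX6 spans 773144 bp and had windows only away from its canonical start. SOX6 +201.9 kb (chr11:16175700-16176700, intronic) held 0.0641, 0.156 and 0.144 FPKM in PEA1, which were 2, 5 and 3 reads, and 1.32, 2.20 and 2.13 in PEA2. It was called higher in PEA2 by 3.16 (SE 0.37, adjusted p = 2.1e-16), the largest change of a member window in this pair, and by 1.74 with the 5 Mb median of 1.41 removed. In the PEO lines the window was already open, at 2.54 ± 0.981 FPKM in PEO1 and 1.97 ± 0.278 in PEO4, and these did not pass a test (log2 fold change -0.28, adjusted p = 0.30). SOX6 +354.0 kb was also called higher in PEA2, with a log2 fold change of 2.90 (SE 0.30, adjusted p = 2.2e-20), from 0.269 ± 0.151 to 2.47 ± 0.0674 FPKM. The SOX6 distal mean was higher in PEA2 by 1.25 (SE 0.15, adjusted p = 1.2e-06) and changed sign, to -0.07, with the 5 Mb median removed. The most open SOX6 window, SOX6 -257.1 kb (chr11:16634700-16635700, over an exon of the overlapping gene C11orf58), was open in every line and passed the wider rule in no pair.

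SOX13, the third member of group D, had the start open in all lines, from 3.12 ± 0.538 FPKM in A2780 to 9.02 ± 2.20 in PEO1 (SOX13 +0.0 kb, chr1:204041700-204042700). As deposited, only PEO1 stood apart from its neighbour in the order. After median centring CP70 had the highest mean, and only PEA2, the lowest, stood apart. The most open distal window, SOX13 +0.9 kb, was lower in PEA2 by a log2 fold change of -1.05, which passed the wider rule. This was -0.96 without PEA2 replicate 3, short of the threshold. With the 5 Mb median removed, 0 SOX13 windows were lower in PEA2 by that rule. SOX13 +31.5 kb (chr1:204073200-204074200, intronic) was the most open in PEA2, at 4.56, 3.64 and 3.64 FPKM against 1.12, 0.779 and 0.671 in PEA1, a log2 fold change of 2.10 (SE 0.24, adjusted p = 1.9e-17). This was 1.96 without PEA1 replicate 3 and 1.99 without PEA2 replicate 1, below the threshold, and 2.52 with the 5 Mb median of -0.42 removed. In the PEO pair it was lower by a log2 fold change of -1.73 (SE 0.33, adjusted p = 1.9e-05). SOX13 -31.5 kb (chr1:204010200-204011200, over an exon of LINC00303) was called lower in PEO4, with 5.36, 3.23 and 4.01 FPKM in PEO1 and 0.523, 0.768 and 0.598 in PEO4 (log2 fold change -2.54, SE 0.25, adjusted p = 2.5e-11). PEO4 overlapped the other 4 lines there, whose means lay between 0.689 and 0.972 FPKM. SOX13 +99 kb was called lower in PEO4 too (log2 fold change -2.32, SE 0.22, adjusted p = 1.1e-11).

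Over all 9 genes, 86 member windows were tested in the PEA pair, and 6 were called higher in PEA2 (6.98%) and 0 lower, where 11.2% of 66103 windows were called higher and 1.42% lower. The 6 were 3 windows of SOX2, 2 of SOX6 and 1 of SOX13. By the wider rule 33 were higher (38.4%) and 11 lower (12.8%), against 29.7% and 9.27% of all windows. Among promoter windows 6 of 15 were higher, 2 of SOX2 and 4 of SOX5, and 1 lower, against 9.13% and 12.3% of all promoter windows, and 4 of 12 neighbour promoters were lower. Among distal windows 27 of 59 were higher (45.8%) and 6 lower (10.2%), against 40.9% and 7.65% of all distal windows. The split over all classes moved to 15 higher and 24 lower after median centring, to 27 and 22 after quantile normalization and to 27 and 19 with edgeR. Shares of all windows were not taken for these settings, so these counts have no background beside them. The median log2 fold change of the member windows was 0.35, and that of all windows tested 0.31. With a pseudocount of 0.5 no member window was called in this pair.

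In the PEO pair 121 member windows were tested, and 7 were called lower in PEO4 (5.79%) where 5.78% of all windows were, a share near the background. They were 3 windows of SOX2, 2 of SOX12 and 2 of SOX13. By the wider rule 10 were higher (8.26%) and 36 lower (29.8%), against 9.63% and 23.6% of all windows. Among 19 promoter windows 3 were higher and 3 lower, against 5.70% and 8.85% of all promoter windows, and among 90 distal windows 7 were higher (7.78%) and 33 lower (36.7%), against 11.4% and 30.5%. After median centring 11 were higher and 21 lower, after quantile normalization 11 and 19, and with edgeR 11 and 25, again with no shares of all windows taken. The median was -0.69 over the member windows and -0.30 over all windows.

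The patient-derived pairs were then set side by side, as they share no library. Of 77 member windows tested in both, 14 (18.2%) rose in PEA2 and fell in PEO4 by the wider rule, against 9.87% of 55579 windows, and none went the reverse way, against 0.979%. These were 8 windows of SOX2 and 2 each of SOX5, SOX6 and SOX13, and made up 42.4% of the member windows higher in PEA2 and 38.9% of those lower in PEO4. After median centring only 4 still showed this opposition (5.19%, against 4.77% of all windows), of which 3 were SOX2 windows, and 4 went the reverse way. In the test of the difference itself, 48 of 121 member windows differed between these pairs by more than 2, of which 45 had the lower change in the PEO pair, where 26.6% of all windows differed. For A2780 set against PEA, 6 of 79 member windows differed, where 12.8% of all did, and for A2780 set against PEO the count was 8 of 113, where 8.12% did.

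**Figure D4:**
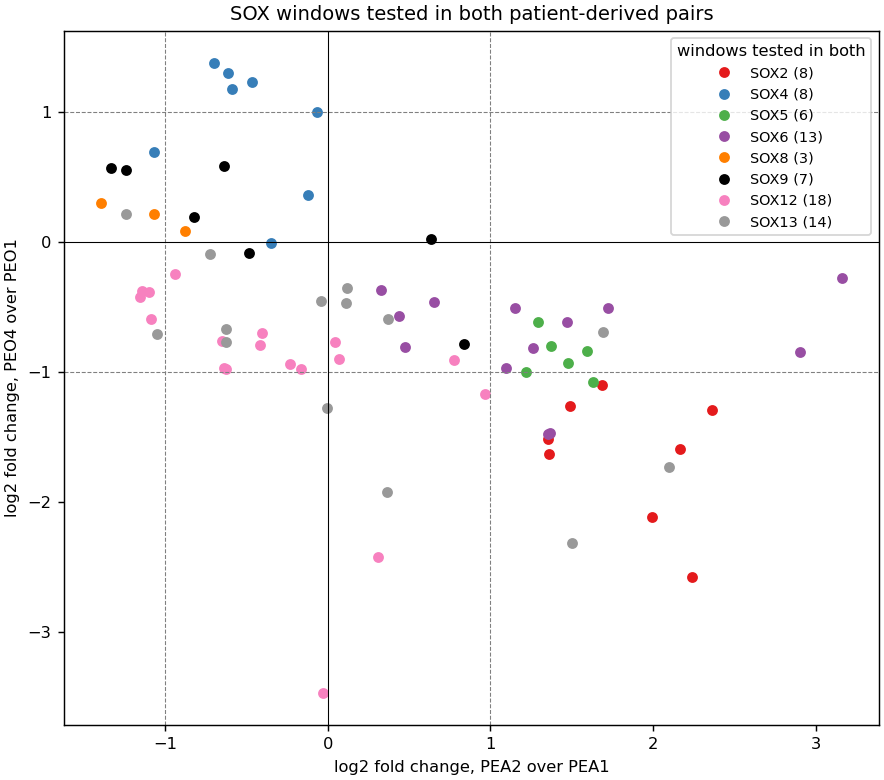
Log2 fold change of PEA2 over PEA1 (x axis) against that of PEO4 over PEO1 (y axis) for the 77 SOX windows tested in both pairs, coloured by gene, with dashed lines at 1 and -1. All 8 SOX2 windows lie at the lower right, past both lines, and 7 of 8 SOX4 windows lie at the upper left.

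The lines differed at most member windows. Over the 18 libraries 115 member windows were tested, and 80 (69.6%) differed among the 6 lines with a range of at least 2 on the log2 scale and an adjusted p below 0.001 in the limma F-test, where 71.4% of all windows did. By class these were 16 of 19 promoter windows and 3 of 12 neighbour promoters, where 61.5% of all promoter windows differed, and 61 of 84 distal windows, where 76.3% of all distal windows did. All 12 SOX5 and all 6 SOX11 windows tested differed, as did 13 of 15 SOX9 windows, but 4 of 9 SOX4 and 9 of 18 SOX13 windows. After median centring 52 member windows differed, and the share of all windows was not taken on that scale.

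PEO1 had the highest mean at 64 of 100 distal member windows, against 47.1% of all 64052 such windows, PEO4 at 16, against 21.6%, and PEA2 at 13, against 20.7%. After median centring PEO1 was highest at 37 and PEA2 at 22, against 24.9% and 22.0% of all. PEO1 was highest at all 8 distal windows of SOX2 and all 14 of SOX5, and kept 5 and 11 of these after centring. SOX9 differed, with PEO4 highest at 10 of 15 distal windows and at 9 after centring. At SOX12 PEA2 was highest at 9 of 15 on either scale, and at SOX4 PEA1 was highest at all 7 after centring.

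**Figure D5:**
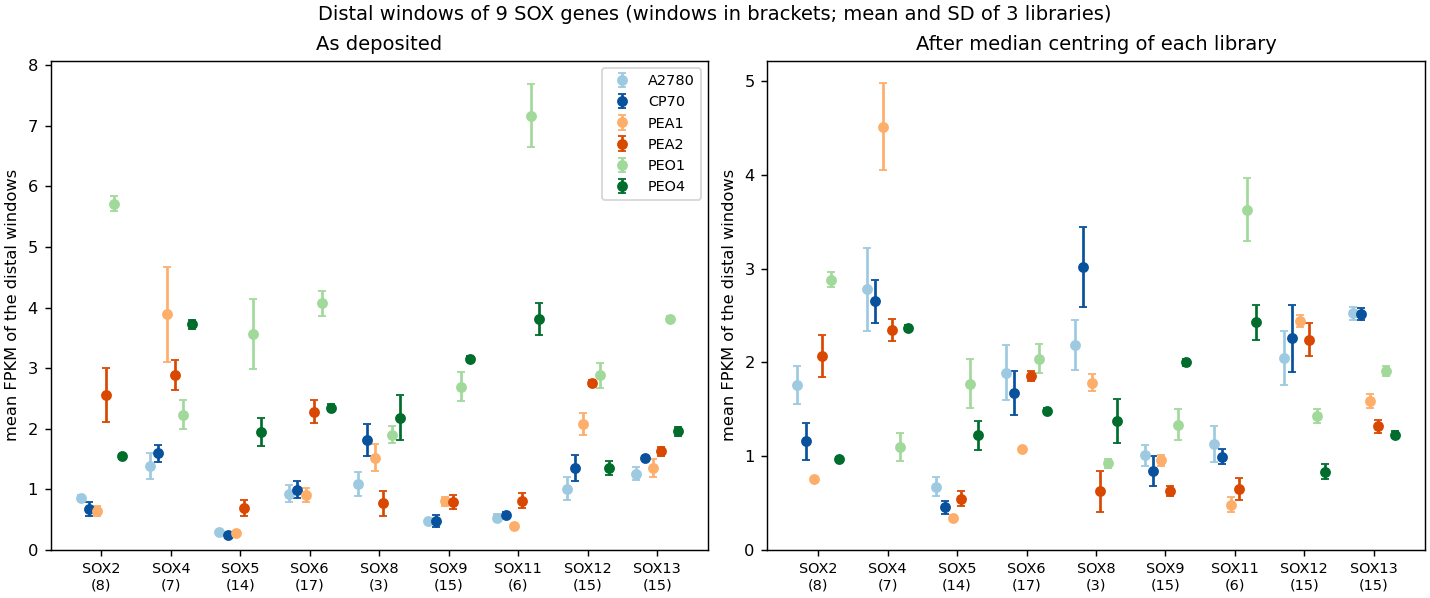
Mean FPKM of the distal windows (y axis) of each SOX gene (x axis, number of windows in brackets) in the 6 lines, as points with the SD of 3 libraries, as deposited (left) and after median centring of each library (right). SOX11, SOX5 and SOX2 stand highest in PEO1 and SOX9 in PEO4 on both scales, whereas SOX4 and SOX8 are highest in PEA1 and CP70 after centring.

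The resistant lines were also set against the sensitive lines across the 3 pairs. A limma test that used 1 mean per line and blocked on the pair gave 0 of 115 at an adjusted p below 0.05 and 0 at an unadjusted p below 0.05, and over all 74141 windows 0% passed the adjusted and 1.38% the unadjusted threshold. Since no window of the table passed, this test cannot tell a shared difference from none. Of the 131 member windows 5 (3.82%) had the higher mean in the resistant line of every pair and 3 (2.29%) the lower, against 13.3% and 4.6% of all windows.

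The regulatory partners listed for comparison were read at their start windows. Over all promoter windows, 9.85% were higher in CP70 by the wider rule, 9.13% were higher and 12.3% lower in PEA2, and 5.70% were higher and 8.85% lower in PEO4. These shares are the background for the short lists below, none of which was tested as a set. Among 10 other SOX genes 6 had such a window. By the wider rule SOX18, a vascular factor of group F, was higher in CP70 (log2 fold change 1.20, adjusted p = 7.6e-05), SOX14 was higher in PEA2 (1.78, adjusted p = 7.2e-10) and SOX3 was lower in PEO4 (-1.53, adjusted p = 3.5e-06). Of 11 genes of the gonadal SOX9 pathway 9 had a window, and in each pair 1 passed, of 5 tested for the PEO lines, 8 for the PEA lines and 9 for A2780 and CP70. DMRT1, a testis factor, was higher in CP70 (1.16, adjusted p = 0.00021), WT1, which acts upstream of SOX9 in the gonad, was higher in PEA2 (1.09, adjusted p = 6.1e-06), and FGF9, a ligand that maintains SOX9 there, was lower in PEO4 (-1.02, adjusted p = 2.4e-05). WT1 read 16.5 ± 0.91 FPKM in PEO1, 20.6 ± 0.407 in PEO4 and from 1.10 to 4.10 in the other lines, and was highest in a PEO line, as were 86.6% of all promoter windows. Of 8 cartilage genes driven by SOX9, SOX5 and SOX6, 3 had a window. HAPLN1 was higher (1.08, adjusted p = 3.6e-05) and COL9A2 lower (-1.03, adjusted p = 8.0e-05) in PEA2, and COL9A3 was higher in PEO4 (1.21, adjusted p = 0.0034). Of 8 genes of the SOX2 network 3 had a window, and 2 were tested in each pair. PROM1, a stem cell surface marker, was higher in PEA2 (1.66, adjusted p = 2.3e-10) and lower in PEO4 (-2.34, adjusted p = 5.3e-15), and KLF4 was lower in PEA2 (-1.01, adjusted p = 2.7e-05). The PROM1 change in PEO4 also met the stricter rule for a call, where 0.949% of all promoter windows were called lower.

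Start windows most like those of the SOX genes were ranked by Pearson's r over the 18 libraries on log2(FPKM + 0.1), over protein-coding genes more than 1 Mb away, as a description that also carries the background difference between lines. The most like SOX9 were ENSG00000288208 (r = 0.994), IRX3 (r = 0.992) and PLEKHA2 (r = 0.989). IRX3 read 18.2 FPKM in PEO1 and 22.7 in PEO4, against 1.24 in A2780. The nearest were ZNF783 for SOX2 (r = 0.989), ZCCHC10 for SOX4 (r = 0.976), CCDC39 for SOX5 (r = 0.977), C2orf72 for SOX8 (r = 0.917), REC8 for SOX11 (r = 0.977), ADISSP for SOX12 (r = 0.982) and CALB1 for SOX13 (r = 0.966).

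The SOX windows held SOX core motifs about as often as other windows. ACAAAG, on either strand, was in 50 of 100 distal member windows and in 52.6% of all distal windows, and ACAATG in 33 and in 38.5%. Among 19 promoter windows 9 held ACAAAG and 6 ACAATG, against 38.9% and 23.0% of all promoter windows. The median GC content was 49.2% in distal member windows and 47.6% in all, and 58.5% and 59.1% in promoter windows. A match describes the letters only.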

How the data were processed

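ATAC-seq reads of 18 libraries were aligned by the authors with Bowtie2 to hg19, cleared of duplicates with Picard and of blacklisted and mitochondrial reads, and counted with featureCounts in windows. Tool versions are not given in the sources used here. The authors deposited FPKM from edgeR's rpkm function. All windows share a length of 1001 bp, so the deposited FPKM is RPM times a constant, and dividing by the value of 1 read gave whole reads for 100% of the values of every library. Every window exceeded 2 FPKM in at least 2 libraries, so the table is selected for signal. Read depth limits low windows, and intervals from reads would cover counting error only.

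Groups, lines and replicate numbers came from the labels. Coordinates and genes are from the GENCODE annotation of GRCh37. The members, gene lists and markers were chosen with earlier results of these data known. Lines were compared with limma 3.58.1 (trend and eBayes, R 4.3.3) on log2(FPKM + 0.1), where the study weighted counts with voom. These fold changes understate the change of low windows. For each gene the text names the window at the canonical start, the most open distal window, and in each pair and direction the called distal window with the largest change. Other windows named were chosen after their values were seen. Alternatives were pseudocounts of 0.5 and 1, a mean above 2 FPKM, no filter, an upper limit on the mean, median centring, quantile normalization, the median of 5 Mb bins removed, edgeR 4.0.16 quasi-likelihood and DESeq2 1.42.0 tests on recovered reads, 1 fit over all 18 libraries, a reach of 20 or 100 kb, the starts of all basic transcripts, a replicate block and each library left out. The window fits within pairs were also run on simulated reads as a check of the code, with no outcome given here.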

Additional observations from a re-analysis of the deposited data

Results flagged for a closer look

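The change from the sensitive to the resistant line differed between pairs at 14 of the 24 named SOX windows, by more than 2 on the log2 scale with an adjusted p below 0.001 in the limma test of the difference. Of these, 7 had been named for the largest called change in 1 pair, which fixes much of their difference, so their values are descriptions with no test (SOX2 -11.7 kb and -17.1 kb, SOX6 +201.9 kb, SOX9 +38.3 kb, SOX12 -15.9 kb, SOX13 +31.5 kb and -31.5 kb). The other 7 were among 17 windows named by position or openness. Of all windows 26.6% differed by this rule for PEA against PEO, 12.8% for A2780 against PEA and 8.12% for A2780 against PEO. Each share is for 1 comparison, whereas the counts of 14 and 7 take a window that differed in any comparison. The share of all windows that differed in any of them was not taken. Values below are the change of the pair named second minus that of the pair named first, and no cause of a difference was tested.

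Between the PEA and PEO pairs the SOX2 windows differed by -2.87 at the start, -3.65 at 11.7 kb, -4.82 at 16.2 kb and -4.27 at 17.1 kb upstream. The SOX5 start differed by -2.22 and SOX5 -611.9 kb by -2.41, SOX6 +201.9 kb by -3.44, SOX11 +4.5 kb by -2.47 and SOX12 -15.9 kb by -3.44. SOX13 differed by -3.83 at +31.5 kb and by -2.21 at -31.5 kb. The opposite sign was seen at the SOX4 start with 2.08, at the SOX8 start with 2.49 and at SOX9 +38.3 kb with 3.97.

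Between the A2780 and PEO pairs the differences were -2.79 at SOX2 -16.2 kb, -2.53 at SOX2 -17.1 kb, -3.90 at SOX12 -15.9 kb, -2.04 at SOX13 +31.5 kb, -2.74 at SOX13 -31.5 kb and 3.69 at SOX9 +38.3 kb. Between the A2780 and PEA pairs they were 2.03 at SOX2 -16.2 kb, 2.94 at SOX2 -11.7 kb and -3.17 at the SOX8 start. In A2780 and CP70 several of these windows held under 1 FPKM, where the pseudocount keeps changes small.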

How the results depend on the processing

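Counts of SOX windows moved with the pseudocount, the regional median, the scaling, the filter on the mean and the reach around the genes. Shares of all windows under the alternative settings are not set beside these counts. In the A2780 pair, 0 windows were called in every run, and the 2 passing the wider rule became 1 with the 5 Mb median removed (a SOX4 window in place of both SOX8 windows), 0 with edgeR, DESeq2, a pseudocount of 1, quantile normalization or the upper limit on the mean, and 5 within 100 kb. In the PEA pair the 6 called became 3 with the 5 Mb median removed, 2 with a mean above 2 FPKM, 2 after median centring, 0 with a pseudocount of 0.5 or 1, and 12 within 100 kb. The 44 passing the wider rule there became 17, 25 with a mean above 2 FPKM and 19 with a pseudocount of 1. The 2 distal means (SOX2, SOX6) became 0 with the 5 Mb median removed and 1 with either pseudocount. In the PEO pair the 9 called became 5 with the 5 Mb median removed, after quantile normalization or within 20 kb, and 2 with a pseudocount of 1. The 46 passing the wider rule became 19, 30 with a mean above 2 FPKM, 26 with a pseudocount of 1 and 30 after quantile normalization. The 2 distal means (SOX2, SOX12) became 0, and 1 with either pseudocount or quantile normalization. The 80 windows differing among lines became 34 with a mean above 2 FPKM, 52 after median centring, 50 after quantile normalization, and 53 and 28 with pseudocounts of 0.5 and 1. The 23 differences between pairs became 8 with a pseudocount of 1. PEO1 or PEO4 was highest in 15 of 17 gene and class entries and in 9 after median centring.

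With the 5 Mb median removed, 4 values changed sign in all: -0.066 at the SOX2 start and -0.205 at the SOX5 start in the PEA pair, -0.0654 for the SOX6 distal mean there, and 0.0297 for the SOX12 distal mean in the PEO pair. Leaving out each library in turn, the PEA pair had 4 to 7 called, 42 to 49 by the wider rule and 2 to 3 distal means, the PEO pair 8 to 11, 41 to 47 and 2 to 2, the A2780 pair 0 to 0, 2 to 3 and 0 to 0, and the lines differed at 77 to 83 windows. Called windows in all, higher and lower, were 2109 and 4485 for the PEO pair (edgeR 3349 and 3288), 7436 and 938 for the PEA pair (edgeR 6174 and 1982) and 159 and 137 for the A2780 pair (edgeR 67 and 265). A replicate block gave the same counts of SOX windows, calling 6 in the PEA pair, 9 in the PEO pair and 0 in the A2780 pair. Deviations of same-numbered libraries of a pair from their line means correlated with r from -0.158 to 0.0643. The labels do not say whether such libraries share more than a number. The causes of these shifts were not tested.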
